A study of Mus musculus with 143 samples.

Results

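Poly(A)-selected RNA was compared with ribosomal-RNA-depleted total RNA in control germinal vesicle (GV) oocytes of the mouse, the fully grown, prophase-arrested female germ cells dissected from ovaries. The members are 16 of the 143 samples of the series, taken by their titles: 8 libraries made by oligo-dT capture and 8 made by the RiboMinus protocol. Each library was labelled as 1 oocyte, so the same oocyte was never measured by both protocols. Both groups carried the genotype label "control" from a study of mice lacking the exosome ribonuclease Dis3 in the oocyte. The RiboMinus oocytes were described as adult; the age of the poly(A) oocytes, the strain, the Cre driver and the alleles of the controls are not given in the sources used here. For the poly(A) libraries, RNA from single lysed oocytes was captured on oligo-dT beads and converted to cDNA, which was amplified and built into Nextera libraries. The RiboMinus libraries were made with the Ovation Solo kit and primed with random hexamers. The RiboMinus titles carry 1 of 2 tags, AM1758 or AM1759, with 4 libraries each; the labels do not say what the tags mark. As comparisons, 15 poly(A) and 8 RiboMinus libraries of Dis3 conditional knockout (cKO) GV oocytes were used, and 8 poly(A) control libraries each of oocytes after 3 h of culture (GV3h) and of metaphase II (MII) eggs.

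Most messenger RNAs end in a poly(A) tail that is added after cleavage of the nascent transcript and bound by poly(A)-binding proteins. Messages of replication-dependent histones end in a stem-loop in place of a tail, and RNAs made by RNA polymerase III, small nucleolar RNAs and mitochondrial tRNAs carry no long tail. Fully grown oocytes no longer transcribe and live on stored messages; many of these keep a short tail until meiotic maturation, when cytoplasmic polyadenylation lengthens it. In what follows, a gene is rich or poor in poly(A) when its TMM-scaled level, which is relative to the bulk of genes, was higher or lower in the oligo-dT libraries; classes of RNA are compared by their share of the gene counts. Lysis, capture, priming, amplification, depth and counting all changed with the protocol and cannot be told apart from tail length.

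The 8 poly(A) libraries held 4843964 to 9830881 gene counts and the 8 RiboMinus libraries 20402604 to 31364267. On log2(CPM + 1), where CPM are counts per 1000000 counts, libraries correlated at 0.93 to 0.98 (Pearson's r across genes) within poly(A), at 0.98 to 0.99 within RiboMinus and at 0.82 to 0.88 between protocols; poly(A) control 1 had the lowest mean correlation with its own group (0.949). Oocyte markers summed to between 33460 and 42520 CPM in poly(A) and between 15880 and 22420 CPM in RiboMinus (the range over libraries). The 18 markers of granulosa, theca and blood cells summed to between 96.3 and 164.5 CPM in poly(A) and between 87.3 and 144.9 CPM in RiboMinus; Ptx3, Tnfaip6 and Hbb-bs were at 0 in all 16 libraries. These like sums held members that went opposite ways: of 8 tested, 2 were higher in poly(A) and 3 lower, against 36.7% and 33.6% of all genes. Inha, the inhibin alpha subunit of granulosa cells, ranged from 0 to 54.1 CPM in poly(A) (median 19.5) and from 0.778 to 6.82 CPM in RiboMinus, with overlapping libraries (log2 fold change 3.19 ± 0.65, SE; edgeR adjusted p = 0.00018), and lost its call with RiboMinus counts summed per tag. Cyp19a1 was also higher (0.55), but turned to -0.81 and was called lower with the ERCC spike-in RNAs as the scale. Nr5a2 (-0.61), Has2 (-1.50) and Kitl (-0.47) were lower. With RiboMinus counts summed per tag, Cyp19a1, Has2 and Kitl lost their call too. Kitl also lost it with total counts in place of TMM (-0.24). The part of follicle cell RNA in the results was not tested. Dis3 itself was lower in the knockout libraries than in the control libraries of both protocols, with log2 fold changes of -2.19 ± 0.26 (SE; adjusted p = 5.32e-07) in poly(A) and -3.13 ± 0.33 (SE; adjusted p = 2.46e-06) in RiboMinus (edgeR quasi-likelihood test).

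IDs with overlapping or shared gene models held unlike counts in the 2 sets of files; how each set was counted is not given in the sources used here. The 2 gene IDs named Sept2 held 125.3 and 124.4 CPM in poly(A), with a ratio between 1.00 and 1.01 in every library, but 215 and 0 counts over the 8 RiboMinus libraries. Among genes with at least 10 CPM in poly(A), a log2 fold change of 5 or more was seen in 17 of 4268 genes that overlap no other RefSeq gene, in 43 of 4018 genes that overlap one, in 107 of 334 IDs with no RefSeq entry and in 11 of 24 IDs that share their symbol. The largest apparent enrichments came from such IDs: Gm49496, an ID with no RefSeq entry, held 143.9 to 235.7 CPM in poly(A) (median 202.1) and not a single count in RiboMinus, at least 15480-fold higher by a floor of 3 counts over the group. The 10 protein-coding IDs with the largest enrichment that the naming rule picked were all IDs sharing a symbol (5) or overlapping another gene (5), among them Gm27021, Rsc1a1, Zfp708, Pakap and Nupl1, and none is read here as rich in poly(A). The counts for genes with 1 gene model at their place are therefore given beside those of the larger lists of protein-coding genes. Genes of the lists below that overlap another RefSeq gene include Atp5b, Btg4, Cnot3, Cnot6l, Cpeb1, Cyp19a1, Dcp1a, Dis3, Dis3l2, Gdf9, Has2, Hist1h2ba, Hist3h2a, Hist3h2ba, Ndufs1, Nlrp14, Pabpn1l, Rpl4, Rpl17, Rps12 and Wee2, and the mitochondrial mRNAs and tRNAs have no RefSeq entry in the table used.

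Of 14545 genes tested, 5332 (36.7%) were higher and 4882 (33.6%) lower in poly(A) (adjusted p under 0.05, edgeR quasi-likelihood test with trimmed-mean (TMM) scaling), so that 70.2% of all genes differed. The difference reached 2-fold in 3545 of the higher and 2425 of the lower genes. The median log2 fold change over all genes was 0.06 and the standard deviation 1.92. Of all 14545 genes tested, 22.4% were higher and 20.5% lower in poly(A) with no overlap between the libraries of the 2 groups. Directions are relative to the bulk of genes: with the ERCC spike-in RNAs as the scale, the median of all genes moved to -1.29, and 1658 genes were called higher and 10075 lower; with total counts in place of TMM it moved to 0.28, with 6322 higher and 3891 lower. Among genes with 1 model fitted alone, 2404 were higher and 2230 lower of 6847.

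Structured small RNAs, mitochondrial RNAs and replication-dependent histones took smaller shares of the gene counts in poly(A), and nuclear genes of oxidative phosphorylation, ribosomal protein genes and 1 rRNA-like locus took larger shares. Small structured RNAs (small nuclear, nucleolar and Cajal body RNAs, Y RNAs and other polymerase III RNAs) made up 0.00179% ± 0.00079 (SD, n = 8) of the poly(A) counts and 0.0317% ± 0.0095 (SD, n = 8) of the RiboMinus counts. Histone genes of the replication-dependent type held 0.0201% ± 0.0031 and 0.136% ± 0.015, in the same order. For mitochondrial mRNAs the shares were 0.153% ± 0.039 and 0.529% ± 0.071. Nuclear oxidative phosphorylation genes went the other way, with 0.698% ± 0.065 in poly(A) and 0.155% ± 0.009 in RiboMinus. Long noncoding RNAs held 1.72% ± 0.06 in poly(A) and 1.23% ± 0.05 in RiboMinus, which includes loci that overlap other genes. In each of the 11 classes compared the libraries of the protocols did not overlap, and the exact two-sided permutation test of the log2 shares gave p = 0.000155, before and after Benjamini-Hochberg adjustment, the smallest value that 12870 regroupings of 8 against 8 can give.

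**Figure D1:**
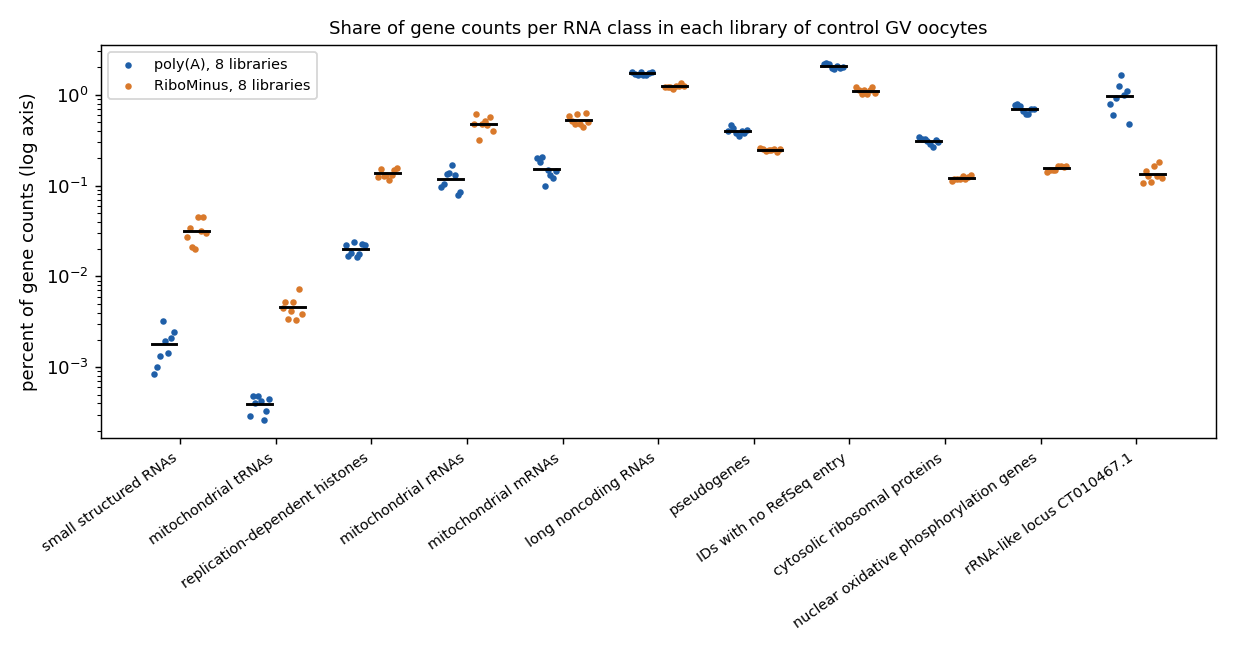
Percent of gene counts (log axis) taken by 11 RNA classes in each library of control GV oocytes; points are libraries (8 poly(A), 8 RiboMinus) and black bars are means. The classes are ordered by their log2 difference, from small structured RNAs (0.00179% against 0.0317%) to the rRNA-like locus (0.976% against 0.135%).

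Replication-dependent histone genes were poor in poly(A). Of 69 gene IDs, 61 had any count and 55 of these had a lower mean in poly(A). The count filter kept 29, many of them through the group where they are high; 22 of these were lower in poly(A), 4 were higher and 3 were not called, against 33.6% of all genes that were lower, with a median log2 fold change of -2.96 against 0.06 over all genes. Of the 24 with 1 gene model, 20 were lower and 2 higher. Hist1h1a (chromosome 13, 23763668 to 23764412, GRCm38.p6), a linker histone gene, was the most abundant of them in RiboMinus: it ranged from 11.1 to 21.25 CPM in poly(A) (median 14.1) and from 406.8 to 659.6 CPM in RiboMinus (median 469.1). Hist1h3f (chromosome 13, 23544052 to 23544954), which encodes histone H3, ranged from 2.30 to 5.13 CPM in poly(A) (median 3.73) and from 231.4 to 430.6 CPM in RiboMinus (median 336.3). For both genes every RiboMinus library was far above every poly(A) library; the log2 fold changes were -5.06 ± 0.16 (SE; adjusted p = 4.1e-16) and -6.46 ± 0.18 (SE; adjusted p = 4.4e-17). Hist1h3a, another H3 gene, fell by 7.39 on the log2 scale, from 56.8 ± 11.8 CPM (SD, n = 8) in RiboMinus to 0.315 ± 0.339 in poly(A), where 2 libraries had no count. The H4 gene Hist1h4a was at 2.42 ± 1.11 CPM in poly(A) and 65.96 ± 16.6 CPM in RiboMinus. The testis-type H2B gene Hist1h2ba, whose model overlaps another gene, was at 2.95 ± 0.81 and 86.6 ± 22.1 CPM.

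Within this family 4 genes were higher in poly(A). Hist1h2bc (chromosome 13, 23684199 to 23692480), an H2B gene, ranged from 59.6 to 131.8 CPM in poly(A) (median 82.99) and from 29.2 to 38.9 CPM in RiboMinus (median 30.8), so that the groups did not overlap; its log2 fold change was 1.48 ± 0.14 (SE; adjusted p = 8.7e-09), but 0.09 and not called under ERCC scaling. Its RefSeq model spans 8282 bases, against 745 bases for Hist1h1a. Hist3h2a, which overlaps another gene, was at 11.9 ± 5.7 CPM in poly(A) and 0.505 ± 0.311 CPM in RiboMinus, and its neighbour in the list, Hist3h2ba, was at 14.7 and 4.06 CPM. Hist2h3c1, an H3 gene with near-identical copies, had 186 counts over the poly(A) libraries and 0 over the RiboMinus libraries, at least 210.0-fold higher by the same floor; reads shared with its copies could be split differently.

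Replacement histone variants, which are made outside S phase from tailed messages, leaned the other way: 8 of 12 were higher in poly(A), against 36.7% of all genes, 2 were lower and 2 were not called, with a median log2 fold change of 1.09. Under ERCC scaling 2 were higher and 6 lower, with a median of -0.25. Of the 10 with 1 gene model, 7 were higher and 2 lower. H1foo (chromosome 6, 115944931 to 115950242), the oocyte linker histone, ranged from 2992 to 5396 CPM in poly(A) (median 3821) and from 1363 to 1591 CPM in RiboMinus (median 1554), a log2 fold change of 1.40 ± 0.09 (SE; adjusted p = 2.0e-11) that was 0.03 and no longer called under ERCC scaling. The H3.3 genes H3f3a and H3f3b rose by 2.04 ± 0.17 and 1.00 ± 0.13 (SE) on the log2 scale, the latter turning to -0.35 under ERCC scaling. H2afv and H2afz, both coding for H2A.Z proteins, were at 2.40 and 1.95. Libraries overlapped for H2afz, at 1.16 to 7.49 CPM in poly(A) and 0.329 to 1.25 CPM in RiboMinus. The exceptions were H2afx, whose message can end in either form and which was at 68.8 ± 17.1 CPM in poly(A) and 150.2 ± 29.8 CPM in RiboMinus, and the linker histone gene H1fx, at 2.40 ± 1.25 and 25.5 ± 3.9 CPM; both fell (log2 fold changes -1.13 and -3.42). Cenpa, the centromeric H3, rose by 0.33, with overlapping libraries (44.6 to 99.7 CPM in poly(A) and 47.0 to 65.4 CPM in RiboMinus).

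**Figure D2:**
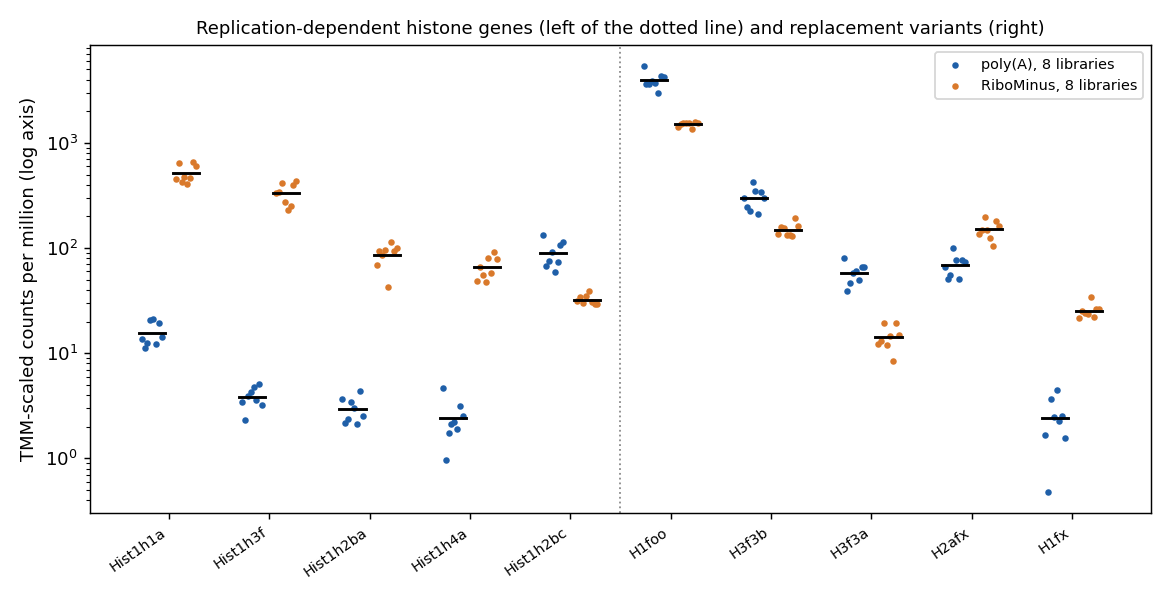
TMM-scaled CPM (log axis) of 5 replication-dependent histone genes and 5 replacement variants; points are the 8 libraries of each protocol and black bars are means. Hist1h1a, Hist1h3f, Hist1h2ba and Hist1h4a lie lower in every poly(A) library than in any RiboMinus library, while Hist1h2bc, H1foo, H3f3b and H3f3a lie higher.

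RNAs made by RNA polymerase III and other structured small RNAs were poor in poly(A). Of 11 IDs, 10 had a lower mean in poly(A). The count filter kept 5, which passed it through the RiboMinus libraries where they are high, and all 5 were called lower, against 33.6% of all genes. Vaultrc5, a vault RNA, had no count in any poly(A) library and 16.8 to 88.7 CPM in RiboMinus (median 45.5), at least 925-fold lower. Rny3, a Y RNA, likewise had 0 counts in poly(A) and 4.64 to 22.7 CPM in RiboMinus (median 10.2), at least 225-fold lower. Rny1, the other Y RNA of the mouse, had 5 counts in all over the poly(A) libraries and 2168 over the RiboMinus libraries (log2 fold change -7.01 ± 0.65, SE). Rn7sk, the 7SK RNA that holds the elongation factor P-TEFb inactive, was detected in every poly(A) library, at 0.242 to 2.99 CPM (median 1.98), against 12.5 to 44.96 CPM in RiboMinus (median 21.4). Its log2 fold change was -3.92 ± 0.38 (SE; adjusted p = 9.1e-09). Rpph1, the RNA of RNase P, was at 0.073 and 6.04 CPM. Outside the list, the 5S rRNA gene n-R5s136 had no count in poly(A) and 10.97 to 42.1 CPM in RiboMinus, at least 425-fold lower; it belongs to a family of near-identical copies. The mean level of Rn7sk was 17.8 CPM in the 4 libraries tagged AM1758 and 30.7 CPM in the 4 tagged AM1759, and both exceeded the poly(A) level.

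Small nucleolar and Cajal body RNAs, which guide modification of ribosomal and spliceosomal RNA and are cut from introns or made from their own genes, followed the same direction. Of 150 IDs listed as such by their gene symbols, 97 had any count. The mean was lower in poly(A) for 64 and higher for 33, most of them at very low levels. The filter kept 18, most of them through the RiboMinus libraries where they are high. Of the 18, 17 were lower, against 33.6% of all genes, and Snora47, at like levels in both protocols, was not called. Snord32a had no count in poly(A) and 3.93 to 15.01 CPM in RiboMinus (median 6.89), at least 160.2-fold lower. Scarna13 was at 0 to 0.514 CPM in poly(A) (median 0.052) and 7.28 to 23.8 CPM in RiboMinus (median 15.3), a log2 fold change of -6.84 ± 0.47 (SE; adjusted p = 4.4e-11). The fitted median of the 18 was -6.72, and -5.96 with the 6 genes at 0 in poly(A) set to their bounds. Snord32a, Scarna13 and Snora47 all overlap other genes. A list of small nuclear RNAs, also built by gene symbol and not limited to spliceosomal RNAs, held 22 IDs. Of these 7 had any count and none passed the filter. Rn7sk, which RefSeq types as a small nuclear RNA, is in the polymerase III list and was tested there.

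The noncoding host genes whose introns carry such RNAs, which are spliced and tailed, leaned towards poly(A) relative to the bulk of genes: 6 of 9 tested of 15 were higher, against 36.7% of all genes, 3 were not called and none was called lower, with a median log2 fold change of 1.13. Under ERCC scaling 2 were higher and 4 lower, with a median of -0.24. Snhg6 ranged around 17.8 ± 3.8 CPM in poly(A) and 3.12 ± 0.77 in RiboMinus, Snhg18 around 26.1 ± 3.3 and 8.04 ± 1.67; Snhg18 lost its call under ERCC scaling (0.34). Gas5 rose by 1.13 ± 0.20 (SE), which turned to -0.24 under ERCC scaling. All 9 overlap other genes.

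Mitochondrial transcripts were poor in poly(A). These are cut from long polycistronic RNAs; the mRNAs carry short tails, the rRNAs only a few adenosines. Of the 13 mitochondrial mRNAs, 7 were tested and all 7 were lower, against 33.6% of all genes, with log2 fold changes from -3.27 (mt-Nd2) to -1.604 (mt-Nd1). The other 6 (mt-Co2, mt-Atp8, mt-Atp6, mt-Co3, mt-Nd3 and mt-Nd4l) were at or near 0 in both protocols, with group means of at most 0.076 CPM, so that these files hold almost no reads for them. mt-Co1, a subunit of cytochrome oxidase, ranged from 223.2 to 573.5 CPM in poly(A) (median 377.3) and from 1240 to 1654 CPM in RiboMinus (median 1399). mt-Nd2, a complex I subunit, ranged from 62.4 to 120.4 CPM in poly(A) (median 81.8) and from 674.8 to 1021 CPM in RiboMinus (median 778.2). The libraries of the 2 protocols did not overlap for either gene, and the log2 fold changes were -1.89 ± 0.14 for mt-Co1 and -3.27 ± 0.13 for mt-Nd2 (SE). The large rRNA mt-Rnr2 was at 775.1 ± 181 and 3695 ± 669 CPM and the small rRNA mt-Rnr1 at 305.3 ± 95.8 and 1509 ± 370 CPM, with log2 fold changes of -2.25 and -2.31. All 13 mitochondrial tRNAs with any count of 22 had a lower mean in poly(A). The count filter kept 7, most of them through the RiboMinus libraries where they are high, and 6 of these were called lower, against the same 33.6%; mt-Tm was at 0.41 ± 0.22 CPM in poly(A) and 20.9 ± 7.3 CPM in RiboMinus.

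Nuclear genes of oxidative phosphorylation, which build the same respiratory complexes, were rich in poly(A): 72 of 76 were higher, 1 was lower and 3 were not called, against 36.7% higher over all genes. Their median log2 fold change was 2.11. Under ERCC scaling 51 were higher and 14 lower, with a median of 0.75. With TMM scaling, 49 of the 51 with 1 gene model were higher. Cox4i1 (chromosome 8, 120668225 to 120674209), a nuclear cytochrome oxidase subunit, ranged from 324.3 to 553.0 CPM in poly(A) (median 425.5) and from 46.9 to 57.9 CPM in RiboMinus (median 50.1), a log2 fold change of 3.05 ± 0.10 (SE; adjusted p = 6.7e-16). Atp5e (chromosome 2, 174461075 to 174464101), a small ATP synthase subunit, ranged from 216.2 to 357.2 CPM in poly(A) (median 286.5) and from 12.7 to 21.45 CPM in RiboMinus (median 19.96). Uqcr11, of complex III, was at 54.5 ± 11.3 and 2.21 ± 0.40 CPM (log2 fold change 4.62 ± 0.16, SE). All 8 poly(A) libraries exceeded all RiboMinus libraries for each of these genes. The one gene lower with TMM scaling was Sdha, the flavoprotein of complex II, at 79.8 ± 9.4 CPM in poly(A) and 102.4 ± 4.7 CPM in RiboMinus; with total counts in place of TMM it was no longer called (-0.14). Atp5b, the catalytic ATP synthase subunit, rose by 0.43 ± 0.07 (SE; -0.93 under ERCC scaling), and Atp5d, Atp5g2 and Ndufs1 were not called. The second ID of Atp5o (0 counts in RiboMinus) is one of those that share a symbol.

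Cytosolic ribosomal protein genes were also rich: 55 of 78 tested of 84 were higher, 7 were lower and 16 were not called, with a median of 1.19, against 36.7% higher over all genes. Under ERCC scaling 20 were higher and 33 lower, with a median of -0.16. Of the 38 with 1 gene model, 29 were higher and 3 lower. Many of these genes have processed copies elsewhere in the genome, so that counts may be split. Rps14 ranged from 149.2 to 208.2 CPM in poly(A) (median 184.0) and from 15.8 to 23.1 CPM in RiboMinus (median 20.5), a log2 fold change of 3.21 ± 0.10 (SE; adjusted p = 1.2e-16). Rpl4, among the 3 most abundant, did not differ by the test (176.6 ± 21.1 and 182.2 ± 11.97 CPM), while Rpl28 and Rps12 fell by 2.43 and 2.34 at mean levels under 9 CPM.

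**Figure D3:**
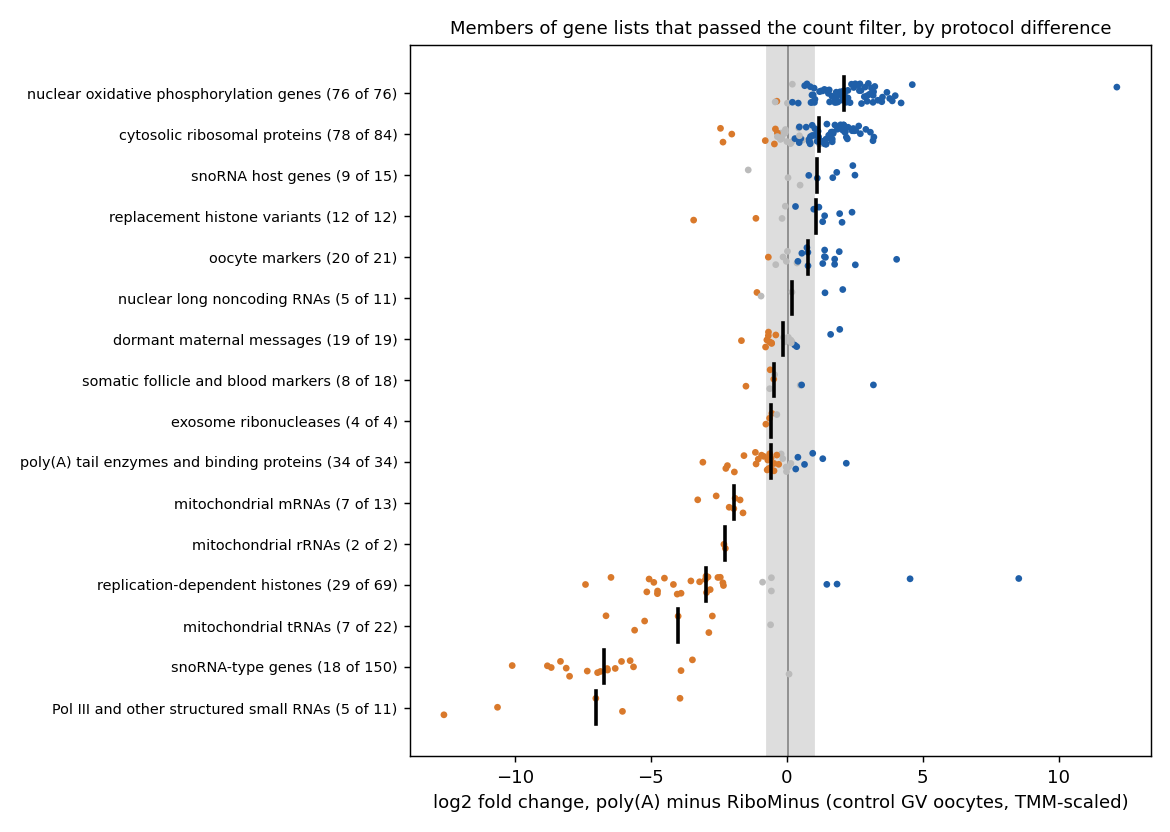
Log2 fold change (poly(A) minus RiboMinus) of the members of 16 gene lists that passed the count filter, with tested and total numbers beside each name. Blue points were called higher, orange points lower and grey points were not called; black bars are list medians, the grey line and band the median (0.06) and the range between the quartiles of all 14545 genes. Medians run from -7.01 for polymerase III and other structured RNAs to 2.11 for nuclear oxidative phosphorylation genes.

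Oocyte-specific messages tended to be rich in poly(A): 14 of 20 tested were higher, 1 was lower and 5 were not called, with a median log2 fold change of 0.78, against 36.7% higher over all genes. Under ERCC scaling 5 were higher and 11 lower, with a median of -0.55. Of the 16 with 1 gene model, 11 were higher and 1 lower. Khdc3 (chromosome 9, 73101381 to 73106631), a member of the subcortical maternal complex, stood highest: it ranged from 1571 to 2889 CPM in poly(A) (median 1934) and from 100.4 to 150.9 CPM in RiboMinus (median 124.0), a log2 fold change of 4.04 ± 0.13 (SE; adjusted p = 6.2e-16). Dppa3 (chromosome 6, 122626424 to 122630271), which protects maternal methylation, was at 1721 ± 242 and 299.2 ± 27.1 CPM. Nlrp14 ranged from 4264 to 6602 CPM in poly(A) (median 5361) and from 1628 to 2501 CPM in RiboMinus (median 2017); its call was lost under ERCC scaling (0.10). Padi6, of the cytoplasmic lattices, was at 4053 ± 476 and 1192 ± 152 CPM. The secreted factors Bmp15 and Gdf9 were not called: Bmp15 was at 2683 ± 253 and 2941 ± 459 CPM, and Gdf9 ranged from 3114 to 4291 CPM in poly(A) and from 1788 to 4564 CPM in RiboMinus. Among the zona pellucida genes, Zp2 and Zp3 were called higher (1.39 and 0.56) and Zp1 was at 0.03. Kit, the receptor of Kit ligand, was the one lower gene, at 400.2 ± 65.6 and 638.5 ± 53.2 CPM.

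Dormant messages, stored in the GV oocyte with short tails and translated during maturation, were not of 1 direction. Of 19 tested, 4 were higher in poly(A), 9 were lower and 6 were not called, against 36.7% higher and 33.6% lower over all genes, with a median of -0.12. With total counts in place of TMM 8 were higher and 8 lower (median 0.10), and under ERCC scaling 1 was higher and 17 lower (median -1.48). Of the 10 with 1 gene model, 3 were higher and 3 lower. Dcp1a, a decapping factor, was the lowest: it ranged from 577.0 to 1096 CPM in poly(A) and from 2420 to 3227 CPM in RiboMinus, a log2 fold change of -1.66 ± 0.12 (SE; adjusted p = 1.2e-10). Wee2, the kinase that keeps the meiotic arrest, fell by 0.77 and Cnot6l, a deadenylase that clears maternal messages, by 0.63; Slbp, which binds the histone stem-loop, was at -0.40. Plat, tissue plasminogen activator, was not called, at 1751 to 2883 CPM in poly(A) (median 2624) and 1946 to 2750 CPM in RiboMinus (median 2354), and neither was Btg4, an adaptor of the CCR4-NOT deadenylase (1537 ± 320 and 1594 ± 177 CPM). Mos (chromosome 4, 3870658 to 3872105), the kinase of the meiotic MAP kinase pathway and a classical message of this kind, was higher: it ranged from 1182 to 2411 CPM in poly(A) (median 1453) and from 333.5 to 463.0 CPM in RiboMinus (median 403.7). Orc6, of the origin recognition complex, was at 359.4 ± 138 and 117.2 ± 10.9 CPM, and lost its call under ERCC scaling (0.23).

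The same 19 messages were read in the poly(A) libraries of the later stages, which share no library with this comparison. From GV3h to MII, 18 of 19 rose and 1 was not called, with a median log2 fold change of 1.13, against 31.6% of 13361 genes that rose (66.4% changed) and a median of -0.05 over all. These values too are relative to the bulk of genes, whose median was -2.17 under ERCC scaling: there 24 genes rose and 12812 fell, and of the 19 messages none rose and 18 fell, with a median of -0.99. Btg4 rose by 1.59, Plat by 0.69, Dcp1a by 0.64 and Orc6 by 1.46; Mos was not called (0.32). Ribosomal protein and nuclear oxidative phosphorylation genes, rich in poly(A) at GV, were lower at MII: 65 of 71 and 68 of 75 fell, with medians of -3.04 and -2.97, against 34.8% of all genes (70 and 75, with medians of -5.15 and -5.07, under ERCC scaling). All 7 mitochondrial mRNAs, poor in poly(A) at GV, rose, with a median of 2.33; under ERCC scaling 2 rose and 1 fell, with a median of 0.24.

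Genes for poly(A) tail enzymes and binding proteins were mostly lower: 22 of 34 were lower, against 33.6% of all genes, 6 higher and 6 not called, with a median of -0.59. Under ERCC scaling 1 was higher and 32 lower, and with total counts 10 were higher and 18 lower. Of the 16 with 1 gene model, 12 were lower and 3 higher. Ybx2 (chromosome 11, 69935805 to 69941604), the germ cell Y-box protein that packages stored mRNA, was the lowest, at 17.35 to 29.5 CPM in poly(A) (median 20.85) and 174.6 to 200.1 CPM in RiboMinus (median 188.1), a log2 fold change of -3.08 ± 0.11 (SE; adjusted p = 9.7e-16). Cnot3, a scaffold of the CCR4-NOT complex, was at 110.9 ± 23.0 and 521.4 ± 25.9 CPM. The noncanonical polymerases Tent4a and Tent4b fell by 2.18 and 1.92. Cpeb1, which directs cytoplasmic polyadenylation, was not called (998.3 ± 109 and 1103 ± 76.5 CPM). Higher were Pabpn1l, the oocyte form of nuclear poly(A)-binding protein, at 863.6 ± 128 and 188.9 ± 30.4 CPM, and Zar1, which organises stored mRNA, at 1027 ± 203 and 409.1 ± 45.2 CPM; Zar1 turned to -0.02 under ERCC scaling. Of the exosome ribonucleases and their relatives, Exosc10, Dis3l and Dis3l2 fell by 0.54, 0.63 and 0.76 (Dis3l2 lost its call with RiboMinus counts summed per tag), and Dis3 was not called (12.6 ± 2.8 and 16.2 ± 6.0 CPM). Dis3 was at 21.7 ± 1.2 CPM in the RiboMinus libraries tagged AM1758 and 10.7 ± 1.6 CPM in those tagged AM1759 (SD, n = 4); with AM1758 alone it was called lower in poly(A) (-0.80), and with AM1759 alone it was not called (0.21).

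Nuclear long noncoding RNAs were few. Of 11, 5 were tested: Kcnq1ot1, the silencing RNA of the Kcnq1 domain, and Nespas, an antisense RNA of the Gnas domain, were higher in poly(A) at mean levels under 4 CPM, Meg3 was lower, and Airn and Malat1 were not called. Over all genes 36.7% were higher and 33.6% lower. Kcnq1ot1 and Nespas lost their call under ERCC scaling, when none of the 5 was higher and 3 were lower. Under that scaling 1658 of all 14545 genes were higher and 10075 lower. Meg3 lost its call with total counts and with either RiboMinus tag alone. Malat1 varied widely, from 2.19 to 77.8 CPM in poly(A) and from 4.19 to 96.8 CPM in RiboMinus. All 5 overlap other genes, and whether counting used strand is not given in the sources used here.

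The locus CT010467.1, an rRNA-like ID with no RefSeq entry, was rich in poly(A) relative to the RiboMinus libraries, which had been depleted of rRNA: it ranged from 4547 to 15620 CPM in poly(A) (median 8451) and from 1178 to 1990 CPM in RiboMinus (median 1379), a log2 fold change of 2.64 ± 0.21 (SE; adjusted p = 2.8e-10). The depletion acted on the RiboMinus libraries alone, so its part cannot be told apart from tails.

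Among the most abundant messages of either protocol, Zbed3, of the subcortical maternal complex, led RiboMinus with 7709 to 11540 CPM against 1935 to 3874 CPM in poly(A). Tet3, the maternal 5-methylcytosine dioxygenase, ranged from 4018 to 5495 CPM in RiboMinus and from 790.4 to 1327 CPM in poly(A) (log2 fold change -2.04 ± 0.10, SE). Dnmt1, the maintenance methyltransferase, was at 4788 ± 272 and 1961 ± 244 CPM. Spin1 was similar in level (3914 ± 287 and 3754 ± 753 CPM) and not called. All 4 overlap other gene models.

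Outside the histones, the protein-coding genes with 1 model that were poorest in poly(A) included Hspa1b, an intronless stress-inducible chaperone gene (chromosome 17, 34956429 to 34959238), at 0.89 ± 0.48 CPM in poly(A) and 16.2 ± 6.6 CPM in RiboMinus. They also included the ribosome biogenesis gene Rrs1 (log2 fold change -3.89 ± 0.32, SE), the MAX partner Mnt (-3.87 ± 0.21), Slc45a4 (-3.56 ± 0.32), the H3K4 methyltransferase Setd1b (-3.47 ± 0.17), the G9a cofactor Wiz (-3.45 ± 0.14) and the ETS repressor Erf (-3.67 ± 0.31). Ahdc1 (chromosome 4, 133011265 to 133078110) was the most abundant, at 25.1 to 45.5 CPM in poly(A) (median 33.9) and 359.6 to 449.6 CPM in RiboMinus (median 400.9). The richest with 1 model were Tmem265, Rbm42, H2-Ke6, Mamdc4, Pagr1a, 0610010K14Rik, A630095E13Rik, Brms1, Hsd3b7 and Rpl37rt. Rbm42, an RNA-binding protein, was at 211.8 ± 22.5 CPM in poly(A) and had 19 counts over all RiboMinus libraries, and Hsd3b7, of bile acid synthesis, was at 124.1 ± 29.9 and 1.75 ± 0.64 CPM; gene models that RefSeq does not hold may overlap them. These genes with 1 model were picked after the values had been seen.

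The protocol difference moved with the length of the gene. Over 6263 protein-coding genes with 1 model, in 4 groups of RefSeq genomic span, the median log2 fold change was 0.66 in the shortest (0.375 to 8.905 kb), 0.14 and -0.14 in the next ones and -0.51 in the longest (41.31 to 1098 kb). In the shortest group 53.9% were higher and 19.2% lower, in the longest 15.3% and 54.3%. Across genes Spearman's rho was -0.35, a description only, since genes of 1 library are not independent. The median span was 3.05 kb for ribosomal protein genes, 6.77 kb for nuclear oxidative phosphorylation genes, 6.54 kb for oocyte markers and 21.9 kb for the tail enzymes, against 19.7 kb for all. Histone genes of the replication-dependent type, with a median span of 0.497 kb, were the shortest of the lists compared and were poor in poly(A). The part of length in each list was not tested.

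The ERCC spike-ins, synthetic RNAs that all carry a tail, show how far the protocols differed for RNAs added from outside. In poly(A) 89 to 91 of 92 were detected per library and in RiboMinus 46 to 56, at like totals (34277 to 84858 and 49352 to 83546 counts). Of 48 tested, 38 (79.2%) differed, 21 higher and 17 lower, with a standard deviation of 2.92 on the log2 scale. The 3 RNAs ERCC-00104, ERCC-00012 and ERCC-00158, each at most 0.200% of ERCC counts, had counts in all poly(A) libraries and in no RiboMinus library. The 12 with a mean of 500 or more counts, fitted and scaled by themselves, ran from -0.82 to 1.05. Their standard deviation was 0.53, against 1.15 among 2895 genes with 1 model at the same minimum. In the fit of all 48, the same 12 ran from -1.23 (ERCC-00003) to 0.63 (ERCC-00171). One ERCC, ERCC-00116, was 3.11 ± 0.17 (SE) lower in poly(A) with counts in every library. Gene counts per ERCC count were 135.5 ± 16.0 in poly(A) and 402.8 ± 48.5 in RiboMinus (exact two-sided permutation p = 0.000155); the labels state an added amount for the poly(A) protocol alone, so this ratio is no measure of the tailed share of RNA.

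**Figure D4:**
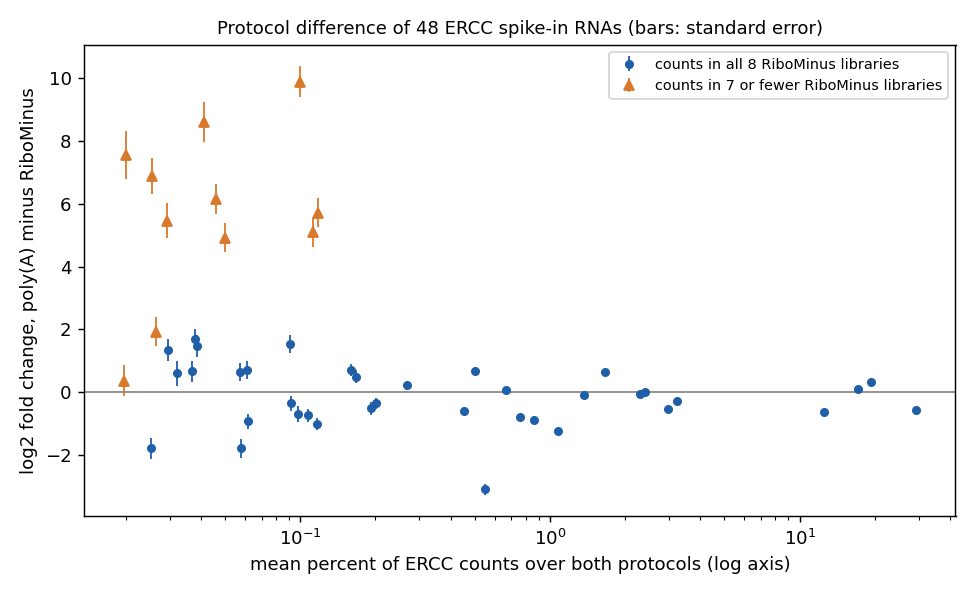
Log2 fold change (poly(A) minus RiboMinus) of 48 ERCC spike-in RNAs against their mean percent of ERCC counts (log axis); bars are standard errors, and triangles mark ERCC with counts in 7 or fewer RiboMinus libraries. The 12 with a mean of 500 or more counts lie between -1.23 and 0.63 in this fit of all 48, and ERCC missing from RiboMinus libraries reach 9.90.

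At an equal depth of 4766896 counts, 18910.5 ± 831.8 gene IDs had a count in poly(A) and 17633.8 ± 577.7 in RiboMinus (SD, n = 8; exact two-sided permutation p = 0.00435). As deposited, the deeper RiboMinus libraries held more, 21027.6 ± 923.1 against 19895.5 ± 1040. The IDs counted in poly(A) include some that share a symbol or place with another ID and hold no count in RiboMinus, such as the second ID of Sept2.

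The protocols were also compared in Dis3 cKO oocytes, in libraries that share none with the controls. There 5325 of 15269 genes (34.9%) were higher and 4628 (30.3%) lower in poly(A). Of 10008 genes called in control and tested in both, 82.55% were called in the same direction in Dis3 cKO, and 31 were called in the opposite direction; Pearson's r of the log2 fold changes across 14075 genes was 0.95, a description over genes measured by the same 2 protocols. Nuclear oxidative phosphorylation genes were again higher (73 of 76), replication-dependent histones lower (20 of 27) and all 7 mitochondrial mRNAs lower. Of the replacement histone variants 5 of 12 were higher and 2 lower, near the share of all genes, with a median of 0.46 against 1.09 in control; no member was called for a genotype difference. A genotype difference in the protocol difference was called for 368 of 16074 genes (2.29%), with 1.08% higher and 1.21% lower in Dis3 cKO, and under ERCC scaling 43 were higher and 38 lower. The RiboMinus Dis3 cKO titles carry 1 of 2 tags, AM1713 or AM1757. No fit by tag was made for Dis3 cKO or for the genotype difference. Rny1 was 3.93 ± 0.84 (SE) less poor in Dis3 cKO, with means of 3.46 CPM in poly(A) and 30.2 CPM in RiboMinus; Rn7sk was 1.70 ± 0.48 less poor. Of 33 histone genes tested 4 differed, among them Hist1h2ac (1.46 ± 0.40) and Hist1h2bj (1.23 ± 0.30), whose poly(A) levels were 3.52 and 2.03 CPM in Dis3 cKO and 1.33 and 0.868 CPM in control, at RiboMinus levels of 24.0 and 31.7 against 24.5 and 31.9 CPM. CPM of the 2 genotypes were scaled apart, so these levels are not on 1 common scale. CT010467.1 was 1.56 ± 0.28 higher, and Uqcr11 1.34 ± 0.19.

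**Figure D5:**
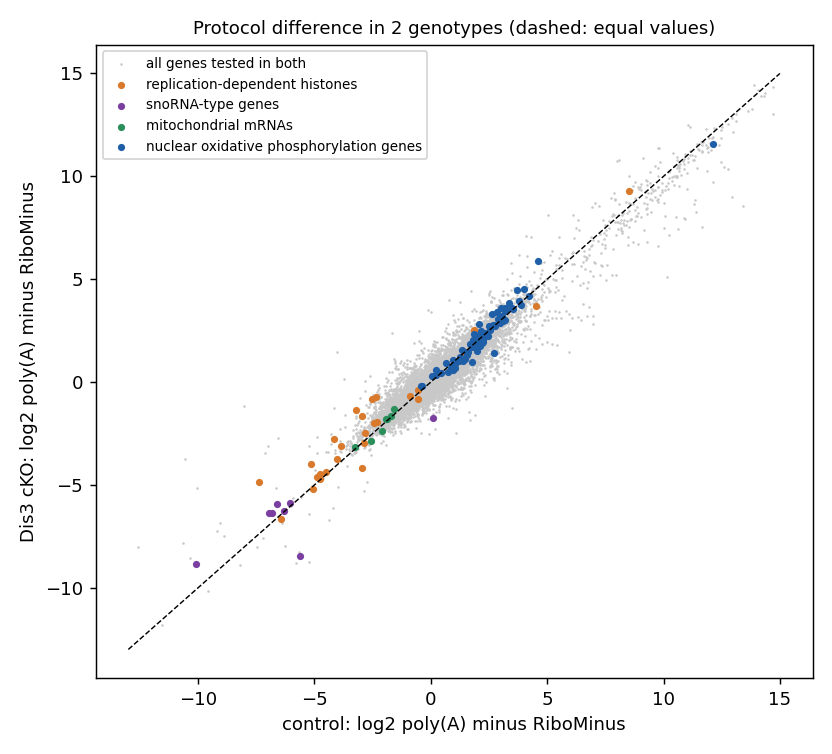
Log2 fold change of poly(A) minus RiboMinus in Dis3 cKO oocytes (vertical) against control oocytes (horizontal); grey points are genes tested in both (14075), colours mark 4 lists and the dashed line equal values. Nearly all histone, small nucleolar and mitochondrial mRNA points lie at the lower left and nearly all nuclear oxidative phosphorylation points at the upper right; exceptions include Hist1h2bc, Hist3h2a, Hist3h2ba and Hist2h3c1, which are above 0 in both genotypes, Snora47, near 0 in control, and Sdha, below 0 in both.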

How the data were processed

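Single-oocyte RNA-seq gene tables and separate ERCC tables were used as deposited. Per the submitters' processing notes the tools were cutadapt 2.5, FastQC 0.11.8, STAR 2.7.2a, SAMtools 1.9, HTSeq 0.9.1, R 3.5.1 and DESeq2 1.24.0, on build mm10; their roles, the annotation release and the use of strand are not given in the sources used here. The values are raw read counts per gene ID made by the authors, with no unassigned rows (0). Poly(A) files list 55573 IDs and RiboMinus files 55487; 55320 shared IDs were kept, holding 97.97% to 99.30% of poly(A) gene counts. Symbols matched for 99.68% of IDs; types, spans and positions came from RefSeq (GRCm38.p6), matched by symbol.

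Counts were tested with edgeR 4.0.16 (filterByExpr, TMM, quasi-likelihood F test, two-sided, Benjamini-Hochberg adjustment over all genes; R 4.3.3); adjusted p under 0.05 is called. The standard error of a log2 fold change is its size over the root of F. CPM are TMM-scaled, given as mean ± SD (n = 8 per group, 15 for Dis3 cKO poly(A)). TMM factors of the control libraries ran from 0.896 to 1.17. Control and Dis3 cKO libraries were filtered and scaled apart for their CPM, so levels of the 2 genotypes are not on 1 common scale. Fold bounds use unscaled CPM and a floor of 3 counts over the group. Class shares, detection (counts thinned to 4766896 per library) and ERCC ratios were tested by exact permutation. The test was run on simulated counts for 14545 genes, of which 98 were changed by 1 and 93 by 2 on the log2 scale. It recovered 34.7% and 100% of these changes, with 3.05% of calls false. All other genes had equal means in both groups, and every gene had the same dispersion. In the data 70.2% of genes were called and dispersion was estimated, so these rates do not describe the comparison itself. Counts are of reads, and precision covers counting and library error between single oocytes. Nothing in the labels says which libraries came from the same mouse, so p-values measure the spread between these libraries.

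Named genes were the 10 protein-coding and 8 other genes with the largest change each way (10 CPM or more in the higher group, called, no overlap between groups), in each list the 3 most abundant and the 2 most changed each way, and the 5 most abundant per protocol; other list members, and genes with 1 model at their place, were chosen after their values were seen. Results for 2 of the named genes are not reported here. The members, lists and tests were chosen with earlier results of these data known. Alternatives were DESeq2 1.42.0, other scalings, filters, gene sets, tags and library subsets.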

Additional observations from a re-analysis of the deposited data

Results flagged for a closer look

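By Dixon's gap test (95% level), which flags about 1 in 20 groups by chance, 16 of 286 groups of 8 libraries held 1 library far from the others. In 3 of these it was poly(A) control 1, whose profile also correlated least with its group: it was the highest for Spin1 (5400 CPM) and A630095E13Rik (83.5 CPM) and the lowest for Exosc10 (49.3 CPM). Other poly(A) libraries apart were control 4 for Gm26965 (110.0 CPM) and 4931408C20Rik (0.193 CPM), control 3 for Scarna13 (0.514 CPM) and control 5 for Tmem265 (10.3 CPM). In RiboMinus, library AM1759_2 held the highest values of the follicle cell genes Has2 (7.69 CPM) and Inha (6.82 CPM, below 6 of the 8 poly(A) libraries) and of Gm21974 and Mamdc4 (0.0377 CPM each). Library AM1759_1 held the highest of Rny1 (28.9 CPM), H1fx (33.9 CPM) and Meg3 (1.89 CPM), AM1758_1 that of H2-Ke6 (0.125 CPM) and AM1758_2 that of Pagr1a (0.107 CPM).

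The protocol difference itself differed between Dis3 cKO and control for 12 of the 133 named genes (adjusted p under 0.05 for the edgeR interaction term), against 2.29% of all 16074 genes tested; some of the named genes were picked for their large differences or high levels in control. Over all genes 368 were called, and under ERCC scaling 43 were higher and 38 lower. On the log2 scale, Dis3 cKO minus control, it was higher for 4931408C20Rik (6.86), Rny1 (3.93), Gm49461 (3.90), Erf (2.10), Rn7sk (1.70), CT010467.1 (1.56), Hist1h2ac (1.46), Uqcr11 (1.34) and Hist1h2bj (1.23). It was lower for Zfp708 (-4.74), Rpl37rt (-4.43) and Cyp19a1 (-1.01). Cyp19a1, the aromatase gene of granulosa cells, was at 34.8 ± 7.3 CPM in control poly(A) and 14.9 ± 4.8 CPM in Dis3 cKO poly(A), against 23.8 ± 3.2 and 21.2 ± 7.7 CPM in RiboMinus. Rpl37rt was at 78.0 ± 33.4 and 30.2 ± 21.75 CPM in poly(A) and at 1.27 ± 0.42 and 11.1 ± 8.2 CPM in RiboMinus, in the same order. Gm49461, with no RefSeq entry, was at 18.4 ± 3.8 CPM in control RiboMinus and 4.70 ± 1.38 CPM in Dis3 cKO RiboMinus. These CPM were scaled apart for the 2 genotypes.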

How the results depend on the processing

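Scaling set the direction of small differences. Under ERCC scaling 1658 genes were higher and 10075 lower in poly(A) in control, 1883 and 9062 in Dis3 cKO, and the interaction called 43 higher and 38 lower; the ERCC scaling of Dis3 cKO and the interaction, DESeq2 in Dis3 cKO, the fit on genes with 1 model, the fit without poly(A) control 1 and the ERCC minimum of 500 were chosen after seeing the data. Named genes that turned under ERCC scaling were Atp5b (-0.93), Cyp19a1 (-0.81), Gas5 (-0.24), Gdf9 (-1.02), H3f3b (-0.35), Plat (-1.29), Rpl17 (-0.89), Snora47 (-1.32) and Zar1 (-0.024); Rpl4 turned to 0.17 with total counts in place of TMM. Under ERCC scaling H1foo, Hist1h2bc, Kcnq1ot1, Nespas, Nlrp14, Orc6 and Snhg18 lost their call, and with total counts Kitl, Meg3, Rdx and Sdha did. With no count filter 8050 genes were higher of 32981, and among genes with 1 model fitted alone 2404 were higher and 2230 lower. ERCC RNAs called higher numbered 11 at a minimum mean of 50 counts; at 500 counts 6 were higher and 4 lower. DESeq2, the stricter filter, each RiboMinus tag alone, sums per tag, the 4 GV groups in 1 fit, poly(A) title numbers 1 to 4 or 5 to 8 alone, nuclear protein-coding genes and the fit without poly(A) control 1 kept both counts within 1.5 times the main ones and turned no named gene that was called; some that were not called changed sign. Under these settings Kitl lost its call in all but DESeq2; Cyp19a1, Dis3l2, Has2, Inha, Meg3 and Nespas did with sums per tag, Meg3 also with each tag alone and poly(A) 1 to 4, Has2 with the 4 groups and poly(A) 5 to 8, Nespas with poly(A) 5 to 8, and Rdx with the 4 groups and nuclear protein-coding genes. Class shares kept their direction and their side of the threshold in percentage points, over nuclear genes and with each tag alone; so did detection at 2 and 5 counts and the gene to ERCC ratio.

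No paired analysis was possible because the RiboMinus numbers run within title tags and the poly(A) numbers do not, so the groups compared share no numbers. GV3h and MII share title numbers, but deviations of same-numbered libraries correlated at -0.04 to 0.03 and none best with its own number; with the replicate block 3949 genes rose and 4783 fell, against 4223 and 4655 without it. Under ERCC scaling 24 rose and 12812 fell. RNAs without a count in poly(A) are limited by its depth: 3 counts over the group set the bounds given. Low ERCC and genes under about 1 CPM rest on few reads.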
